A study of Homo sapiens with 9 samples.

Results

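Epithelial-mesenchymal transition (EMT) markers and regulators were followed in ES-2 cells upon depletion of IGF2BP1 or SRF. The group holds 10 of the 58174 genes in the tables, chosen by their gene names: the cadherins CDH1, CDH2 and CDH11, the matrix and cytoskeleton genes FN1 and VIM, and the transcription factors SNAI1, SNAI2, TWIST1, ZEB1 and ZEB2. ES-2 is an established human ovarian carcinoma cell line, grown in DMEM with fetal bovine serum. The 3 groups were cells transfected with the control siRNA siC, with an siRNA pool against IGF2BP1 (siIGF2BP1) or with an siRNA pool against SRF (siSRF), all harvested 72 h after transfection, with 3 total RNA-seq libraries in each. A single cell line was used throughout, the labels give no separate clones or culture dates, and p-values therefore measure the spread between these libraries, which may be technical. Values are FPKM, which are reads scaled by gene length and by the size of the library.

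In EMT, epithelial cells lose E-cadherin junctions and take up the shape, motility and matrix production of mesenchymal cells. The SNAI and ZEB zinc finger factors and the basic helix-loop-helix factor TWIST1 drive this change, and the zinc finger factors repress CDH1 by binding E-box elements of its promoter. N-cadherin (CDH2), vimentin (VIM) and fibronectin (FN1) are its customary mesenchymal markers. IGF2BP1 is an oncofetal RNA-binding protein that stabilizes its target mRNAs, and SRF is a transcription factor that binds CArG boxes of cytoskeletal and immediate early genes.

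All members lie on GRCh38 and are protein-coding. CDH1 (ENSG00000039068) spans chr16:68737292-68835537 on the plus strand, CDH11 (ENSG00000140937) chr16:64943753-65126112 on the minus strand and CDH2 (ENSG00000170558) chr18:27932879-28177946 on the minus strand. VIM (ENSG00000026025) spans chr10:17228241-17237593 and ZEB1 (ENSG00000148516) chr10:31318495-31529814, both on the plus strand. FN1 (ENSG00000115414) spans chr2:215360440-215436073 and ZEB2 (ENSG00000169554) chr2:144364364-144521057, both on the minus strand. SNAI1 (ENSG00000124216) spans chr20:49982980-49988886 on the plus strand, TWIST1 (ENSG00000122691) chr7:19020991-19117636 and SNAI2 (ENSG00000019549) chr8:48917598-48921740 on the minus strand. The genes differ in structure. The MANE Select transcript, the reference transcript agreed between RefSeq and Ensembl, has 46 exons in FN1, 16 in CDH1 and CDH2, 10 in VIM and 2 in TWIST1.

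Sequencing depth, as reads assigned to genes, ranged from 6421764 to 9416175 per library (median 7377934). The targeted genes followed their labels. IGF2BP1 fell from 12.8 ± 0.689 FPKM in siC to 4.11 ± 0.0846 in siIGF2BP1 (SD, n = 3), and SRF fell from 14.5 ± 1.28 in siC to 1.47 ± 0.145 in siSRF. SRF was also lower in siIGF2BP1, at 6.01 ± 0.714 FPKM and 41.3% of the siC mean. Of 8 ovarian carcinoma markers, the keratins KRT7, KRT8 and KRT18 were above 1 FPKM in every group, whereas MUC16 was at 0 in all 9 libraries. The summed level of these 8 markers ranged from 149 to 161 FPKM in siC, from 192 to 220 in siIGF2BP1 and from 217 to 222 in siSRF. No leukocyte marker of 4 and no skeletal muscle marker of 3 was above 1 FPKM, with PTPRC, CD3E, MYOD1 and MYOG at 0. Of 4 endothelial markers only CDH5 was above 1 FPKM, and of 3 neural crest and melanocyte markers only MITF, with SOX10 at 0. The summed endothelial markers ranged from 8.55 to 11.1 FPKM in siC, from 14.6 to 16.5 in siIGF2BP1 and from 7.87 to 8.65 in siSRF, and PECAM1, VWF and KDR stayed at or under 0.387 FPKM in every library. The part of these markers in the results was not tested. In bulk RNA, fewer cells of a type and less RNA per cell cannot be told apart.

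Upstream sequence in RefSeq (GRCh38.p14) was available here for 5 of the 10 members, CDH2, VIM, FN1, ZEB1 and ZEB2. The 250 bases before the start are printed for FN1 and VIM, which fell upon SRF depletion, and for CDH2, which rose upon IGF2BP1 depletion. Capitals mark motif matches on either strand.
FN1, chr2:215436069-215436318, minus strand: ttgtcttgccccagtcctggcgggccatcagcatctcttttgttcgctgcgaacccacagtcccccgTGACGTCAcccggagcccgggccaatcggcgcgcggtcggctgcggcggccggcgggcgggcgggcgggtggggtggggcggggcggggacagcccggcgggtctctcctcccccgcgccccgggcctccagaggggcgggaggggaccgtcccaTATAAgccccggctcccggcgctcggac
VIM, chr10:17227991-17228240, plus strand: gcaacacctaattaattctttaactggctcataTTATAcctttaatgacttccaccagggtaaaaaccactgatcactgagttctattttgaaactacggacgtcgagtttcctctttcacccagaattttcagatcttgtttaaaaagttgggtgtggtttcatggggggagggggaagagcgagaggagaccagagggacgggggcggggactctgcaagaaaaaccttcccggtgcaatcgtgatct
CDH2, chr18:28177131-28177380, minus strand: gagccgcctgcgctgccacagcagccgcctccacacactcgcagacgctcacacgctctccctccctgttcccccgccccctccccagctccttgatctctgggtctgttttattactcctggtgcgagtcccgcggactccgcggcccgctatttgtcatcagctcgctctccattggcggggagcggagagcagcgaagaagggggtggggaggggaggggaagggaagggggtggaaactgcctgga
The FN1 sequence holds the cyclic AMP response element TGACGTCA, which begins 183 bases before the start, and TATAA, which begins 28 bases before it. The VIM sequence holds only TATAA on the opposite strand, written TTATA, at 217 bases before the start, and the first of the CDH2 entries holds none of the motifs searched. Among the other entries of these members, the SNAI and ZEB E-box (CAGGTG or CACCTG) was found only for ZEB1. No entry holds a CArG box, written CC, 6 bases of A or T, and GG. In all 35116 RefSeq windows of this length, 1.646% hold the cyclic AMP response element, 18.926% TATAA on either strand, 17.493% the E-box and 1.159% a CArG box. These are matches of letters in a short window and say nothing about binding.

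In siC cells the mesenchymal markers were expressed and CDH1 was not detectable at this depth. VIM, the intermediate filament protein of mesenchymal cells, was by far the most abundant member, with 1065, 1046 and 1055 FPKM in the siC libraries, rank 14 among protein-coding genes. CDH2 followed with 25.4 ± 2.33 FPKM, then TWIST1 with 10.5 ± 0.699 and ZEB1 with 10.1 ± 0.316, whose libraries overlapped. FN1 came next with 8.25 ± 0.427 FPKM, followed by SNAI2 with 3.25 ± 0.817 and ZEB2 with 2.71 ± 0.195, which also overlapped. SNAI1 was at 0.198 ± 0.121 FPKM (SD, n = 3), on 1 to 4 reads per library. The order depends on the gene length used, since the deposited lengths merge the exons of all transcripts. With MANE Select lengths, chosen after the data were seen, FN1 moved up behind CDH2 at 17.0 FPKM and ZEB2 above SNAI2, at 7.30 and 3.29 FPKM.

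**Figure D1:**
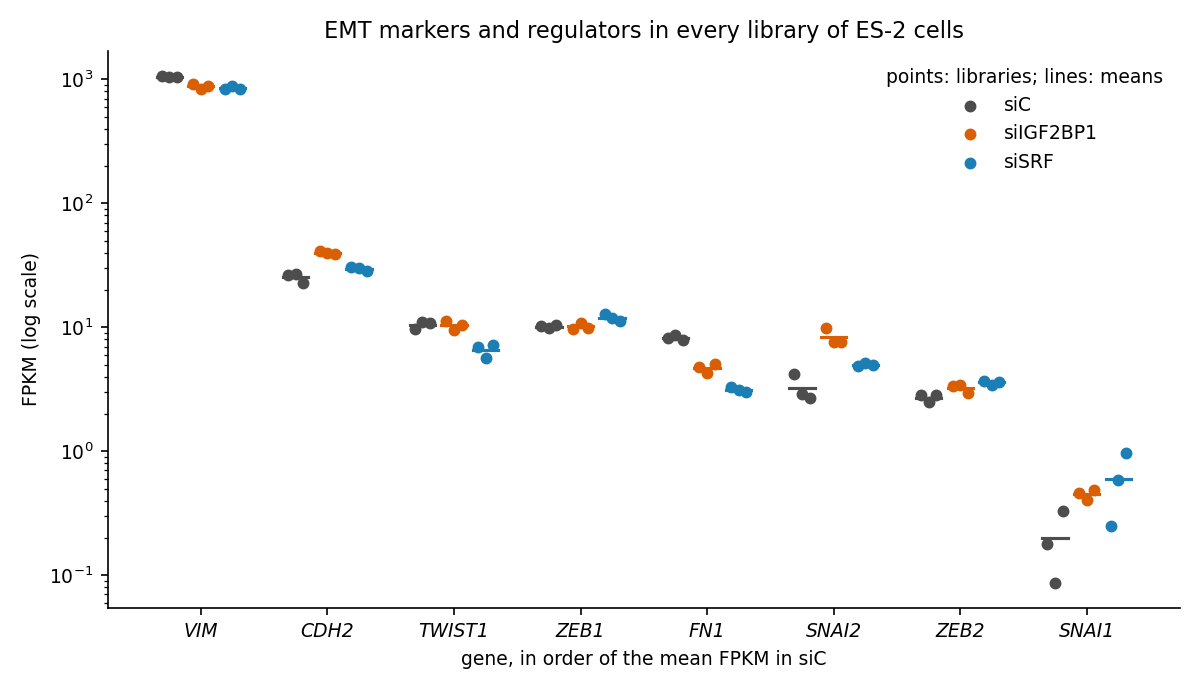
FPKM on a log axis of the 8 members tested, in order of their siC mean. Each point is 1 of 3 libraries of a group and each line the group mean. VIM is the highest in every group, CDH2 is highest in siIGF2BP1, FN1 steps down from siC to siIGF2BP1 to siSRF, and SNAI1 is under 1 FPKM throughout.

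The cadherins were dominated by CDH2. CDH1, the epithelial cadherin, had 0 reads in every siC library, 0, 0 and 1 read in siIGF2BP1 and 0, 2 and 1 read in siSRF. A count of 0 over the 3 siC libraries allows up to 0.0235 FPKM (3 reads over the group). The siSRF reads correspond to 0.0206 FPKM, with an exact Poisson 95% interval of 0.00424 to 0.0601 that covers counting error only. CDH11, the cadherin of osteoblasts and other mesenchymal cells, had 0 reads in all 9 libraries, which allows up to 0.0109 FPKM in siC, 0.00957 in siIGF2BP1 and 0.00949 in siSRF. Both genes were below the filter of a mean of 0.1 FPKM and were not tested, so the fits below hold 8 of the 10 members.

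CDH2, the neuronal and mesenchymal cadherin, had 26.6, 27.0 and 22.7 FPKM in siC, 41.2, 40.1 and 39.0 in siIGF2BP1 and 30.7, 29.9 and 28.7 in siSRF. Every siIGF2BP1 library was above every siSRF library, and each of these above every siC library. Upon IGF2BP1 depletion CDH2 rose 1.58-fold (log2 fold change 0.66, SE 0.074, 95% interval 0.48 to 0.84, limma adjusted p = 0.00282). In siSRF it was at 117% of the siC mean (log2 fold change 0.23). Limma-trend did not call this (adjusted p = 0.0731 against a threshold of 0.01), whereas limma-voom on the recovered reads did (adjusted p = 0.00863). Limma-voom was the only 1 of 18 alternatives to call it. Removing GC content and gene length trends gave a log2 fold change of 0.12 in siSRF (limma adjusted p = 0.405). The direct comparison of the depletions, which uses no siC library, gave a 1.34-fold higher level in siIGF2BP1 (log2 difference 0.43, SE 0.0411, limma adjusted p = 0.000551). The rise over siC lost its call without siC replicate 1 (limma adjusted p = 0.0109) or without siIGF2BP1 replicate 1, 2 or 3 (limma adjusted p = 0.0152, 0.0162 and 0.0167), whereas the difference between the depletions kept it without any single library.

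FN1, the matrix ligand of the alpha5 beta1 integrin, fell upon both depletions. It had 8.22, 8.69 and 7.83 FPKM in siC, 4.81, 4.25 and 5.03 in siIGF2BP1 and 3.29, 3.11 and 3.03 in siSRF. The 3 groups did not overlap. The siIGF2BP1 mean was 56.9% of the siC mean (log2 fold change -0.80, SE 0.0889, limma adjusted p = 0.00267), and the siSRF mean was 38.1% of it (log2 fold change -1.36, SE 0.0772, limma adjusted p = 0.000329). Directly compared, FN1 was 1.48-fold higher in siIGF2BP1 than in siSRF (log2 difference 0.56, SE 0.0948, limma adjusted p = 0.00542). FN1 in siSRF was the only one of the members' calls against siC to be kept without any single library. The call in siIGF2BP1 was kept only without siIGF2BP1 replicate 2 (limma adjusted p = 0.00959) and missed the threshold without each other library of the comparison, siC replicates 1, 2 and 3 and siIGF2BP1 replicates 1 and 3 (limma adjusted p = 0.0105 to 0.014). The difference between the depletions likewise held only without siIGF2BP1 replicate 2 (limma adjusted p = 0.00679, against 0.0155 to 0.0235 without siIGF2BP1 replicate 1 or 3 or any siSRF library), and it also missed the threshold once GC content and gene length trends were removed (limma adjusted p = 0.0204).

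VIM had 919, 839 and 890 FPKM in siIGF2BP1 and 837, 886 and 838 in siSRF. All of these libraries were below the siC libraries given above. VIM fell by 0.31 on the log2 scale in siSRF, to 80.9% of the siC mean (SE 0.0535, limma adjusted p = 0.0091). In siIGF2BP1 it was at 83.7% (log2 fold change -0.26, SE 0.0631), and limma-trend did not call it (adjusted p = 0.04) whereas limma-voom on the recovered reads did (adjusted p = 2.62e-08). The depletions overlapped, with a log2 difference of 0.05 (95% interval -0.09 to 0.19, limma adjusted p = 0.569). The call in siSRF lies close to the threshold. It was lost with a pseudocount of 1 (limma adjusted p = 0.0106) or 0.01 (0.0105), without a filter on low values (0.0321) and without any 1 of the siC and siSRF libraries (0.021 to 0.0467).

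Among the transcription factors, SNAI2, which encodes SLUG, rose upon IGF2BP1 depletion. It had 4.19, 2.87 and 2.70 FPKM in siC, 9.94, 7.65 and 7.55 in siIGF2BP1 and 4.90, 5.13 and 4.99 in siSRF, on 43 to 168 reads per library. The siIGF2BP1 libraries lay above all others, and the siSRF libraries lay above the siC libraries, of which replicate 1 was the highest. The rise was 2.56-fold (log2 fold change 1.35, SE 0.196, 95% interval 0.88 to 1.83, limma adjusted p = 0.00665). In siSRF SNAI2 had a log2 fold change of 0.63 (SE 0.171), with an adjusted p of 0.0422 by limma-trend and of 0.00501 by limma-voom. SNAI2 was 1.65-fold higher in siIGF2BP1 than in siSRF (log2 difference 0.72, SE 0.116, limma adjusted p = 0.00439), a call that was lost with all 9 libraries in one fit (limma adjusted p = 0.0114). The rise over siC was called without siC replicate 1 (limma adjusted p = 0.0064) and missed the threshold without siC replicate 2 or 3 or any siIGF2BP1 library (limma adjusted p = 0.0244 to 0.0276). Without siC replicate 1, SNAI2 was also called in siSRF (log2 fold change 0.82, limma adjusted p = 0.00622). The difference between the depletions was kept only without siIGF2BP1 replicate 1 (limma adjusted p = 0.00319, against 0.0101 to 0.0194 without siIGF2BP1 replicate 2 or 3 or any siSRF library).

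TWIST1, the basic helix-loop-helix factor of mesoderm and neural crest, fell upon SRF depletion. Its levels were 9.69, 11 and 10.8 FPKM in siC, 11.3, 9.44 and 10.4 in siIGF2BP1 and 6.89, 5.67 and 7.14 in siSRF. The siSRF libraries were below all others, and siC and siIGF2BP1 overlapped. The siSRF mean was 62.7% of the siC mean (log2 fold change -0.67, SE 0.106, limma adjusted p = 0.00629). In siIGF2BP1 the log2 fold change was -0.02 with a 95% interval of -0.23 to 0.20 (limma adjusted p = 0.939). Directly compared, TWIST1 was 1.57-fold higher in siIGF2BP1 than in siSRF (log2 difference 0.66, SE 0.111, limma adjusted p = 0.00547). Both calls missed the threshold without any 1 library of their comparison (limma adjusted p = 0.0144 to 0.025 for siSRF against siC and 0.0106 to 0.024 between the depletions). The log2 fold change then lay between -0.73 and -0.57 for siSRF against siC, and the log2 difference between the depletions at 0.55 to 0.72. Removing the GC content and gene length trends gave a log2 fold change of -0.52 in siSRF (limma adjusted p = 0.0138).

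ZEB1 and ZEB2, the zinc finger homeobox repressors of CDH1, were not called in any comparison by limma-trend. ZEB1 had 10.2, 9.80 and 10.4 FPKM in siC, 9.74, 10.9 and 9.91 in siIGF2BP1 and 12.8, 11.9 and 11.2 in siSRF. The siSRF libraries were the highest (log2 fold change 0.23 against siC, 95% interval 0.07 to 0.40, limma adjusted p = 0.052), and siIGF2BP1 overlapped with siC (log2 fold change 0.00, 95% interval -0.16 to 0.16). With GC content and gene length trends removed, the log2 fold change of ZEB1 in siSRF was 0.046 (limma adjusted p = 0.613). Between the depletions ZEB1 was lower in siIGF2BP1 by limma-voom (log2 difference -0.23, adjusted p = 0.00592), with an adjusted p of 0.0592 by limma-trend. ZEB2 had 2.82, 2.48 and 2.82 FPKM in siC, 3.34, 3.40 and 2.96 in siIGF2BP1 and 3.69, 3.44 and 3.64 in siSRF. Both depletions lay above siC, with a log2 fold change of 0.40 in siSRF (95% interval 0.15 to 0.64) and of 0.25 in siIGF2BP1 (95% interval -0.03 to 0.52). The adjusted p of ZEB2 in siSRF was 0.0334 by limma-trend and 8.47e-05 by limma-voom, and in siIGF2BP1 it was 0.208 and 0.0249. The ratio of ZEB1 to ZEB2 was 3.62, 3.95 and 3.70 in siC, 2.92, 3.20 and 3.35 in siIGF2BP1 and 3.47, 3.47 and 3.06 in siSRF, so that siC was the highest. SNAI1, which encodes SNAIL, had 2, 1 and 4 reads in siC, 6, 5 and 7 in siIGF2BP1 and 3, 9 and 12 in siSRF. Its siIGF2BP1 libraries lay above its siC libraries, on 1 to 7 reads each, whereas siSRF overlapped with siC. At this depth no change was called, with log2 fold changes of 0.97 (95% interval -0.05 to 1.99) in siIGF2BP1 and 1.17 (95% interval -0.17 to 2.50) in siSRF. SNAI2 exceeded SNAI1 in every library, between 5.16 and 32.9 times.

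**Figure D2:**
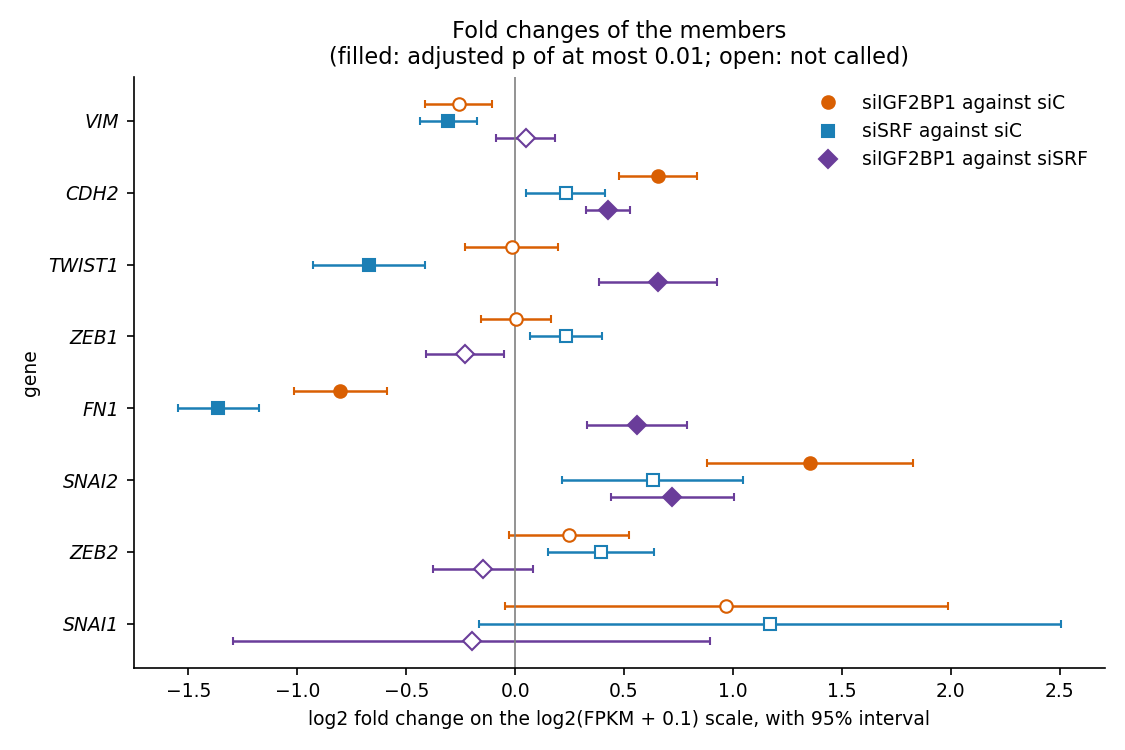
Log2 fold changes on the log2(FPKM + 0.1) scale (x axis) with 95% intervals for 8 members (y axis) in 3 comparisons of 3 libraries each. Filled symbols passed an adjusted p of at most 0.01. CDH2 and SNAI2 lie to the right in siIGF2BP1, FN1 lies to the left in both depletions, TWIST1 lies to the left in siSRF and at 0 in siIGF2BP1, and the intervals of SNAI1 are the widest.

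Counted over the members tested, 3 of 8 were called in siIGF2BP1 against siC, CDH2 and SNAI2 higher and FN1 lower. Of all 22292 genes tested there, 7.12% were called, 3.55% higher and 3.57% lower. The siIGF2BP1 and siC libraries did not overlap for 6 of the 8 members, among them SNAI1 on few reads, and for 35.6% of all genes. In siSRF against siC, 3 of 8 members were called, VIM, FN1 and TWIST1, all lower, against 12.2% of 21857 genes, 5.34% lower and 6.85% higher. Libraries did not overlap for 7 of 8 members and for 39.9% of genes. Between the depletions, 4 of 8 members were called, CDH2, FN1, SNAI2 and TWIST1, all higher in siIGF2BP1, against 20.0% of 22311 genes, 8.82% higher and 11.2% lower. Here 6 of 8 members and 46.1% of genes did not overlap. The median log2 fold change of the members was 0.13 in siIGF2BP1, 0.23 in siSRF and 0.24 between the depletions, beside 0.017, 0.007 and 0.017 over all genes. The comparisons with siC share the siC libraries. For a single gene, an exact permutation test of 3 against 3 libraries cannot go below 0.1, the two-sided value that each member without overlap reached.

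**Figure D3:**
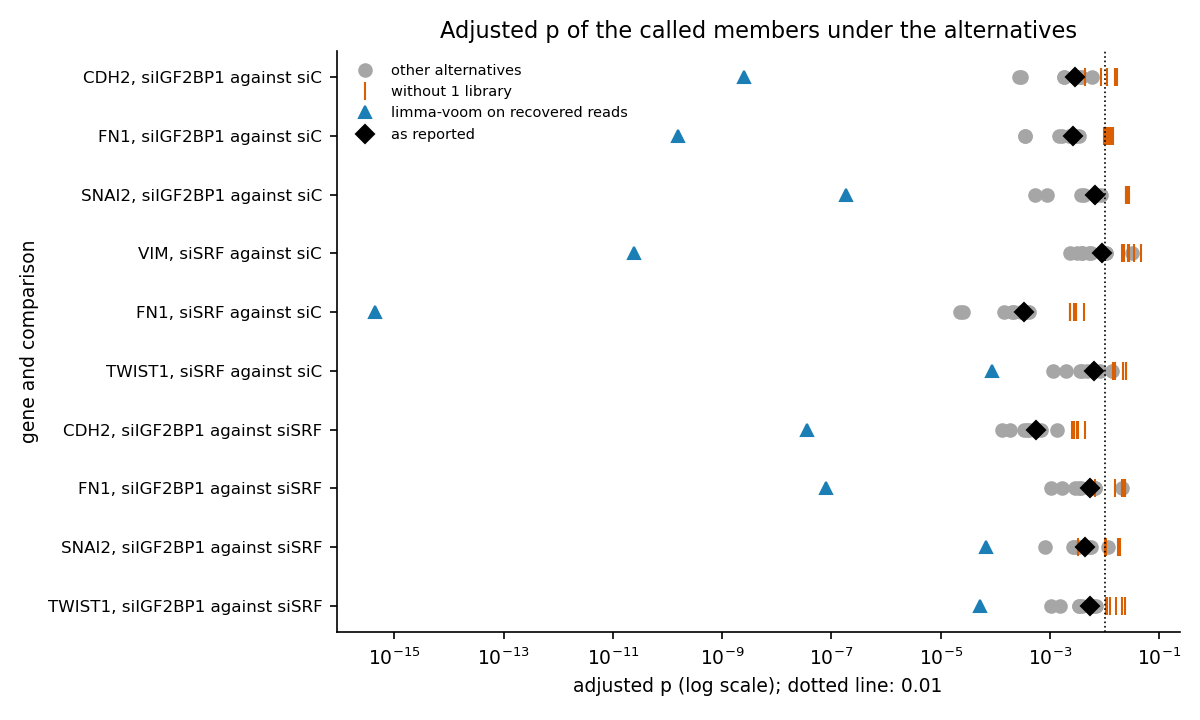
Adjusted p (x axis, log scale) of the 10 calls of members (y axis) as reported (diamonds), without 1 library (ticks), with limma-voom on the recovered reads (triangles) and under the other alternatives (grey circles). The dotted line is 0.01. Limma-voom gave the smallest adjusted p for each call, and leaving out 1 library moved 8 of the 10 across the line at least once, the exceptions being FN1 in siSRF against siC and CDH2 between the depletions.

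The surroundings of the members in the pathway were read from gene lists. The lists were chosen with earlier results of these data known, so their counts describe the listed genes and are no independent test. They are to be read beside the shares over all genes tested. In siIGF2BP1 against siC 3.55% were higher and 3.57% lower, and in siSRF against siC 6.85% higher and 5.34% lower. Between the depletions 8.82% were higher in siIGF2BP1 and 11.2% lower. Of 38 epithelial junction and surface genes, the class that CDH1 belongs to, 16 were kept by the filter in siIGF2BP1 against siC, with 2 higher and 0 lower and a median log2 fold change of 0.15, and 17 in siSRF, with 3 higher and 0 lower and a median of 0.07. Those called were KRT7 and KRT8 in siIGF2BP1 and included KRT7 and KRT18 in siSRF, all of which encode simple epithelial keratins. KRT18 rose from 43.4 ± 2.08 FPKM in siC to 81.7 ± 3.44 in siSRF, and this call was kept without any single library. KRT7 was lost in siIGF2BP1 without siIGF2BP1 replicate 3 (limma adjusted p = 0.0116) and in siSRF without siC replicate 1 or 3 or any siSRF library (up to 0.0236), and KRT8 without any 1 of the 6 libraries (up to 0.0229). Of 16 epithelial transcription and splicing factors 6 were kept. In siIGF2BP1 0 of the 6 were called by limma-trend or limma-voom, with 3 at an unadjusted p under 0.05, and in siSRF 1 was called, TP63, the p63 factor of basal epithelia (5.45 ± 0.421 to 8.45 ± 0.638 FPKM, limma adjusted p = 0.00439). This call was kept only without siC replicate 1 and lost, with an adjusted p of up to 0.0203 by limma, without siC replicate 2 or 3 or any siSRF library.

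Other EMT-inducing transcription factors moved in both directions. In siIGF2BP1 3 of 15 were called, SOX9 and PRRX1 lower and HMGA2 higher, with a median of -0.09, and in siSRF 4 of 15, TWIST2 lower and HMGA2, YBX1 and ETS1 higher, with a median of 0.14. TWIST2, the paralog of TWIST1, fell with it in siSRF, from 10.2 ± 0.628 to 6.37 ± 0.39 FPKM (log2 fold change -0.67, SE 0.077, limma adjusted p = 0.00206, and 0.0117 without siSRF replicate 2). In siSRF, HMGA2 and YBX1 were also lost without siSRF replicate 2 (limma adjusted p = 0.0108 and 0.0121), and ETS1 without any 1 of the 6 libraries (up to 0.0302). In siIGF2BP1, PRRX1 and HMGA2 were lost without any 1 of the 6 (limma adjusted p up to 0.0352 and 0.0383), and SOX9 without siC replicate 1 or 3 or siIGF2BP1 replicate 2 or 3 (up to 0.0204). Among 24 repressor partners and turnover factors of SNAI and ZEB proteins, 2 were called in siIGF2BP1 and 3 in siSRF. These counts were near the shares over all genes tested, 7.12% in siIGF2BP1 and 12.2% in siSRF. AJUBA, a LIM protein that binds SNAI proteins, rose from 25.9 ± 0.694 FPKM in siC to 48.4 ± 1.97 in siIGF2BP1 and 54.9 ± 0.378 in siSRF. The kinase gene CSNK1A1 went in opposite directions, from 31.5 ± 1.22 FPKM in siC to 21.7 ± 0.209 in siIGF2BP1 and 47.1 ± 1.33 in siSRF, and GSK3B fell in siSRF, a call lost without any siSRF library (limma adjusted p up to 0.013).

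Most of the listed mesenchymal surface, matrix and cytoskeleton genes outside the members that were kept by the filter rose in siIGF2BP1. There FN1 fell and VIM was lower by limma-voom, though not called by limma-trend. Of 40 listed genes 33 were kept, and CNN1, COL1A2, COL3A1, POSTN, MMP9, LUM and DCN were not. Of the 33 kept, 22 were higher and 1 lower, with a median of 0.95 beside 0.017 over all genes, of which 3.55% were higher and 3.57% lower. This list too was chosen with earlier results of these data known, so the difference from all genes is a description only. MMP2, a gelatinase, rose from 11.2 ± 1.49 to 83.5 ± 4.65 FPKM (log2 fold change 2.90, SE 0.11, limma adjusted p = 0.000101), and MMP14, a membrane-bound matrix metalloproteinase, was the gene that fell. In siSRF 8 were lower and 4 higher, with a median of -0.02, and directly compared 19 were higher in siIGF2BP1 and 4 lower, with a median of 0.84. The 23 calls in siIGF2BP1 came to between 14 and 19 without 1 library, the fewest without siIGF2BP1 replicate 2, and the 12 in siSRF to between 5 and 10, the fewest without siSRF replicate 2.

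Partners of FN1 and VIM differed between the depletions. Of the fibronectin receptors and intermediate filament partners, 5 of 15 were higher and 0 lower in siIGF2BP1, all of them integrin genes (ITGA5, ITGAV, ITGB1, ITGB3 and ITGB5, of which the first 4 are also in the mesenchymal list). ITGB1, the beta subunit of most fibronectin-binding integrins, rose from 82.8 ± 8.51 to 239 ± 8.88 FPKM (log2 fold change 1.53, SE 0.08, limma adjusted p = 0.000241), while FN1, its ligand, fell. In siSRF 9 of 14 were lower and 1 higher, with a median of -0.57 beside 0.007, and FN1 and VIM fell as well. With GC content and gene length trends removed, 7 genes of this list were called in siSRF and its median was -0.38. The 10 calls in siSRF came to between 4 and 7 without 1 library, the fewest without siC replicate 2, and the 5 in siIGF2BP1 to between 3 and 4, the fewest without siIGF2BP1 replicate 1, 2 or 3. ITGA5 was lost in either comparison without any 1 of the 6 libraries (limma adjusted p up to 0.0463 and 0.042), and ITGB3 in siIGF2BP1 without siIGF2BP1 replicate 1, 2 or 3 (limma adjusted p up to 0.0173). Directly compared, 12 of 14 were higher in siIGF2BP1, as FN1 was.

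Of 20 further cadherins only 5 were kept. CDH13 (15.6 ± 0.496 FPKM in siC, 23.7 ± 0.616 in siIGF2BP1), CDH5 (9.38 ± 1.24 and 15.2 ± 1.02) and CDH24 (5.18 ± 0.362 and 7.44 ± 0.0907) rose in siIGF2BP1, as CDH2 did. The calls of CDH5 and CDH24 were lost without any 1 of the 6 libraries (limma adjusted p up to 0.0418 and 0.0326), and that of CDH13 was kept in each case. In siSRF 0 of the 5 were called by limma-trend, 1 by limma-voom and 2 by limma-trend with GC content and gene length trends removed, with 2 at an unadjusted p under 0.05 and a median of -0.13. CDH12 was at 3.06 ± 0.241 FPKM in siC and 1.71 ± 0.322 in siSRF (log2 fold change -0.82, limma adjusted p = 0.0147), and was called there under 6 of 17 alternatives. Of 13 catenins and cadherin turnover genes, 1 was called in siIGF2BP1, CTNNAL1, higher, and 7 in siSRF, 4 lower and 3 higher. Over all genes tested, 7.12% were called in siIGF2BP1, a share near that of the catenin list there, and 12.2% in siSRF. Without 1 library, CTNNAL1 in siIGF2BP1 was kept only without siC replicate 3 (limma adjusted p up to 0.0285 without siC replicate 1 or 2 or any siIGF2BP1 library), and the 7 calls in siSRF came to between 2 and 5, the fewest without siSRF replicate 1. Of 26 genes of EMT-inducing signals, 8 were higher and 2 lower in siIGF2BP1, with a median of 0.19, and 3 were higher and 0 lower in siSRF, with a median of -0.02. The count in siSRF was near the 12.2% called over all genes tested. The 10 calls in siIGF2BP1 came to between 2 and 7 without 1 library, the fewest without siIGF2BP1 replicate 3. SMAD7, an inhibitory SMAD of the TGF-beta pathway, had the largest change of the 10, from 0.539 ± 0.0856 to 2.92 ± 0.489 FPKM in siIGF2BP1 (log2 fold change 2.23, SE 0.21, limma adjusted p = 0.00148, and 0.0129 without siIGF2BP1 replicate 3).

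**Figure D4:**
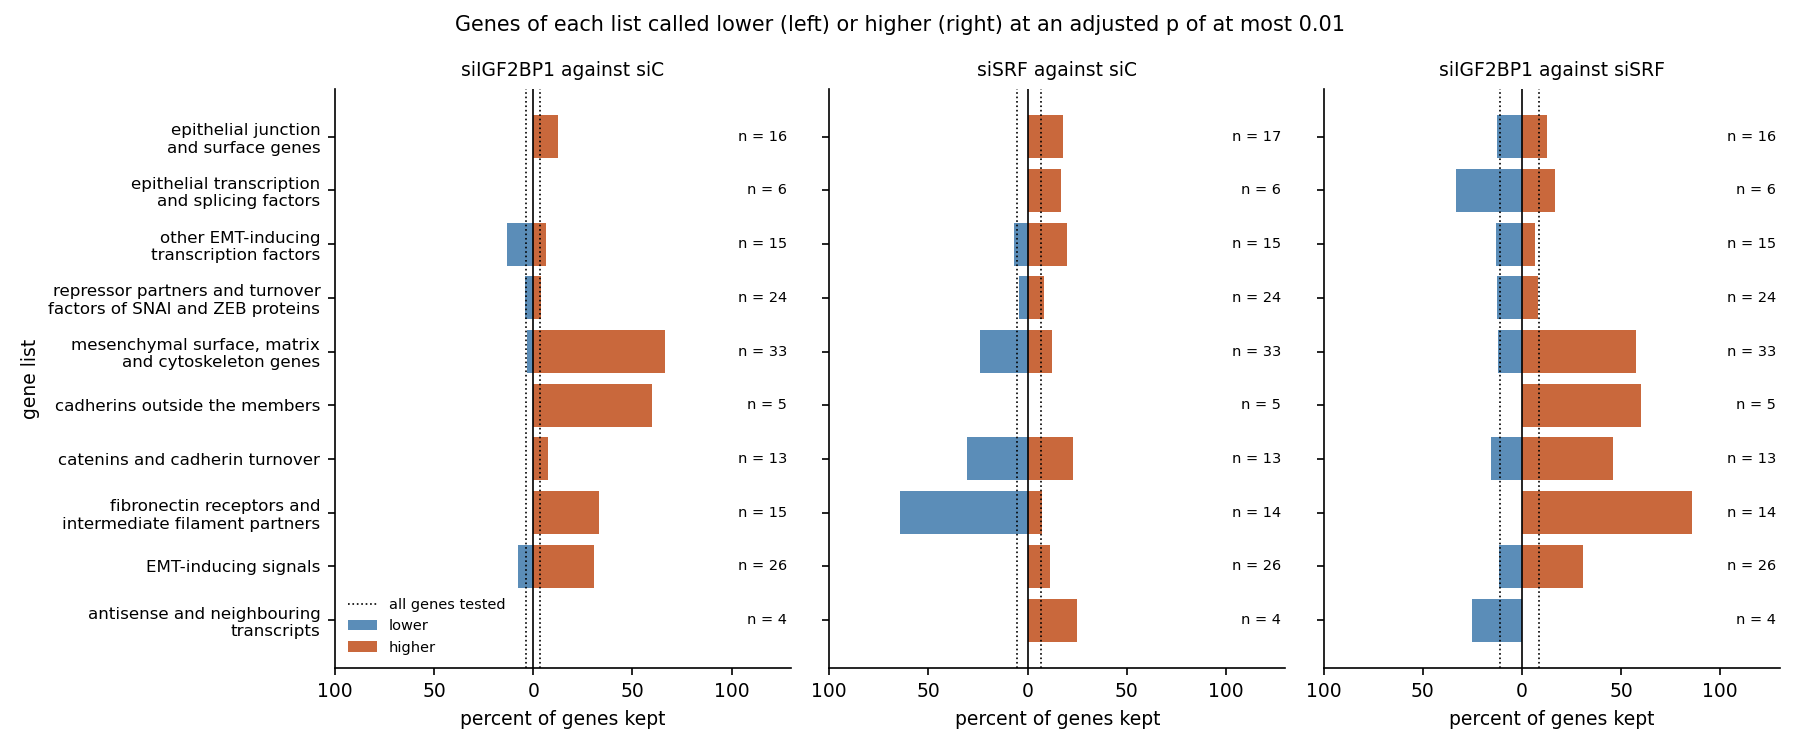
Percent of the genes kept in each list (y axis, n beside the bars) that were called lower (left bars) or higher (right bars) at an adjusted p of at most 0.01, in 3 comparisons. Dotted lines give the percent of all genes tested. In siIGF2BP1 against siC, 22 of 33 mesenchymal genes were higher and 1 lower, in siSRF against siC 9 of 14 fibronectin receptors and filament partners were lower, and 12 of 14 of the latter were higher in siIGF2BP1 than in siSRF.

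Some genes beside or antisense to the members were read for overlap. The strand setting of the authors' counting is not given in the sources used here, and reads of overlapping genes may then be shared. CDH1, CDH2, SNAI2, TWIST1 and ZEB2 also overlap genes on the opposite strand, whose levels are not given here. VIM-AS1, antisense to VIM, was at 5.43 ± 0.95 FPKM in siC, 5.32 ± 1.03 in siIGF2BP1 and 5.75 ± 0.698 in siSRF, with no call. ZEB1-AS1 was at 1.47 ± 0.224, 1.59 ± 0.423 and 0.945 ± 0.0628 FPKM, also with no call (limma adjusted p = 0.0707 in siSRF). HDAC9, the histone deacetylase gene next to TWIST1, moved against TWIST1, from 1.14 ± 0.0969 FPKM in siC to 3.29 ± 0.0457 in siSRF (log2 fold change 1.46, SE 0.13, limma adjusted p = 0.000894), with 0.673 ± 0.119 FPKM in siIGF2BP1.

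For each member called in a comparison, the protein-coding genes most like it were found by Pearson's r of log2(FPKM + 0.1) over the 9 libraries, among 10380 genes of at least 1 FPKM. The 9 libraries form 3 groups and share depth and scaling, so r describes mainly the order of the group levels, and it is given without a test. RBMS3, which encodes an RNA-binding protein, was nearest to both CDH2 (r = 0.991) and SNAI2 (r = 0.967), with means of 2.1 FPKM in siC, 3.5 in siIGF2BP1 and 2.54 in siSRF. MAP3K14, a kinase of the alternative NF-kappaB pathway, also followed both (r = 0.984 and 0.959), with GGT5 after them for CDH2 (r = 0.972) and the kinase gene TNIK between them for SNAI2 (r = 0.96). FN1 was followed by PPIF, a mitochondrial cyclophilin gene (r = 0.996, with 90.8, 61.6 and 45.0 FPKM in siC, siIGF2BP1 and siSRF), by IQGAP3 (r = 0.996) and by the fumarase gene FH (r = 0.994). VIM was followed by HMGA1, which encodes a chromatin protein (r = 0.989, with 654, 426 and 372 FPKM), by the histone gene HIST1H4I (r = 0.989) and by MTHFD1L, a mitochondrial folate enzyme gene (r = 0.987). TWIST1 was followed by GNE, which encodes an enzyme of sialic acid synthesis (r = 0.991, with 6.34, 6.17 and 4.45 FPKM), by IRGQ (r = 0.985) and by the lysosomal ATPase gene ATP13A2 (r = 0.978).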

How the data were processed

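Total RNA of ES-2 cells was depleted of ribosomal RNA and sequenced from directional libraries. The authors clipped reads with Cutadapt 1.14, aligned them with HISAT2 2.1.0 to GRCh38 (hg38), handled alignments with SAMtools 1.5, counted reads on Ensembl genes with featureCounts 1.5.3 and normalized with edgeR 3.18.1 (TMM). The authors deposited FPKM per library in 2 tables, whose siC values are identical, beside their own log2 fold changes, p-values and FDR, which were not used. Whole reads were recovered for 100% of values (tolerance 0.01 reads), with 6421764 to 9416175 reads per library.

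Groups and replicate numbers came from the sample labels. Each comparison was one fit over the whole table with limma 3.58.1 in R 4.3.3 (limma-trend, two-sided), made on log2(FPKM + 0.1) after dropping genes whose mean over its 6 libraries was under 0.1 FPKM. Benjamini-Hochberg adjustment covered every gene left, genes were called at an adjusted p of 0.01 or less, and fold changes on this scale are understated for low genes. Summaries were made in Python 3.11.15. The fits were tested on simulated data for siIGF2BP1 against siC, where limma-trend recovered fewer of the changed genes than limma-voom and made more false calls, at a rate above its threshold. With a minimum mean of 10 reads it recovered more and made fewer. Of 230 list genes, all but 2 (CDH2-AS1 and DUB3) were matched by symbol, and some genes stand in more than 1 list. Named were all members, the targeted genes, at most 2 genes per list, comparison and direction with the largest fold change among called genes of at least 1 FPKM, and the 3 genes most like each called member. Genes named outside this rule, where a count was small, were chosen after their values were seen. The members and lists were chosen with earlier results of these data known. Alternatives were pseudocounts of 1 and 0.01, other filters, median-ratio rescaling, limma-voom on recovered reads, all 9 libraries in one fit, a replicate block, adjustment over protein-coding genes, removal of GC content and gene length trends, a threshold of 0.05 and leaving out each replicate. A minimum mean of 10 reads and MANE Select lengths (GENCODE 44) were added after seeing the data. Some genes of the lists are not reported here by name.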

Additional observations from a re-analysis of the deposited data

How the results depend on the processing

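Under the alternatives, each call of a member kept its direction, and the counts of called members stayed within 1 of the count reported except as follows. Leaving out 1 library gave 0 to 1 called members in siIGF2BP1 against siC (3 reported), 1 to 2 in siSRF against siC (3 reported) and 1 to 2 between the depletions (4 reported). The count of 0 came without siIGF2BP1 replicate 1 or 3, where limma-trend had 4 members at an unadjusted p under 0.05. In siSRF against siC, limma-voom called 6 members and a threshold of 0.05 called 5. Over all genes, in the order siIGF2BP1 against siC, siSRF against siC and siIGF2BP1 against siSRF, 1588, 2665 and 4460 genes were called, against 3805, 5123 and 6912 by limma-voom and 3596, 5205 and 7132 at a threshold of 0.05. All 9 libraries in one fit called 2475 genes in the first comparison, and a minimum mean of 10 reads, added after seeing the data, 2760 and 4071 in the first and second. Leaving out 1 library gave 436 to 738 genes in the first, 946 to 1796 in the second and 2885 to 3358 in the third. Small values changed sign without reaching the threshold. In siIGF2BP1 against siC, removing GC content and gene length trends gave log2 fold changes of 0.059 for TWIST1, -0.113 for ZEB1 and -0.026 for ZEB2. Leaving out 1 library gave -0.078 to 0.05 for TWIST1, with values above 0 of 0.02, 0.003 and 0.05 without siC replicate 2, siC replicate 3 or siIGF2BP1 replicate 2, and -0.045 to 0.035 for ZEB1, with values below 0 of -0.02 and -0.045 without siC replicate 2 or siIGF2BP1 replicate 2. SNAI1 between the depletions ran from -0.629 to 0.175, the latter without siSRF replicate 3. The cause of these shifts was not tested, and fewer libraries leave fewer degrees of freedom.

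Equal replicate numbers were not shown to mark shared cultures. Deviations of same-numbered libraries correlated between -0.044 and 0.019, so the replicate block is given only here. With the replicate block, 91, 501 and 2075 genes and 0, 1 and 2 members were called by limma-trend, in the same order of comparisons, and 4 members had an unadjusted p under 0.05 where 0 were called.

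SNAI1, on 1 to 12 reads per library, and CDH1 and CDH11, at or near 0 reads, are limited by depth. Of the genes called over all genes, 67, 87 and 167 had a mean under 10 reads.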

Other observations

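Ratios between members were read per library after the values were seen, and are given without a test. The ratio of CDH2 to FN1, a cell adhesion and a matrix marker that usually rise together in EMT, was 3.23, 3.10 and 2.90 in siC. It was 8.56, 9.43 and 7.74 in siIGF2BP1 and 9.32, 9.62 and 9.48 in siSRF, so the siC libraries lay below all others. The ratio of SNAI2 to TWIST1 was 0.433, 0.261 and 0.251 in siC, 0.88, 0.81 and 0.727 in siIGF2BP1 and 0.71, 0.905 and 0.698 in siSRF. Both ratios were thus above siC in each depletion.

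Several genes of the pathway differed between the depletions by the direct comparison, which uses no siC library. FBXL14, a ubiquitin ligase adaptor for SNAI and TWIST proteins, was at 4.65 ± 0.667 FPKM in siIGF2BP1 and 11.5 ± 0.782 in siSRF (log2 difference -1.30, SE 0.11, limma adjusted p = 0.000359). CTBP1, a corepressor bound by ZEB proteins, was at 12.4 ± 0.171 and 8.87 ± 0.556 FPKM (0.48, SE 0.059, limma adjusted p = 0.00144). The WNT ligand gene WNT5B was at 8.26 ± 0.298 and 2.92 ± 0.315 FPKM (1.47, SE 0.097, limma adjusted p = 0.000132), and NECTIN2, a junction protein gene, at 35.3 ± 1.69 and 19.6 ± 0.912 FPKM (0.85, SE 0.055, limma adjusted p = 0.000124). These differences were called under each alternative run for FBXL14, WNT5B and NECTIN2, and under 16 of 17 for CTBP1.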
